A study of Oryza sativa with 6 samples.

Results

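The 5 stretches described here are long pieces of rice chromosomes 1, 2 and 3 in which peaks of the chromatin protein OsHMGB1 stood close together. They were taken from 1 to 12 Mb and from 30 to 42 Mb on chromosome 1, from 20 to 34.9 Mb on chromosome 2, and from 1 to 15 Mb and from 25 to 35.4 Mb on chromosome 3. A peak belonged to a stretch if its midpoint fell there, and overlapping peaks of the 3 lists were merged into regions. This gave 11023 merged regions, out of 60991 on all 12 chromosomes. The 62.3 Mb of the stretches are 16.7% of the 373 Mb spanned by the lists and held 18.1% of the merged regions. They were selected on peak density and coordinates, as these chromosomes had the densest peaks, with 114, 112 and 118 regions of all 3 replicates per Mb on chromosomes 1, 2 and 3, against 72.1 to 96.2 on the others. Peak density, coverage and recurrence in the stretches are therefore given as a description, without a test.

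HMGB proteins are abundant non-histone chromatin proteins whose HMG box bends DNA with little sequence preference, and they can ease the access of other factors to chromatin. In rice, as in other plants with mid-sized genomes, genes are concentrated in the euchromatic distal arms, while repeats fill the sequence around the centromeres. Each stretch begins 1 Mb after the start of its chromosome or ends 1.01 to 1.27 Mb before the end of its last peak. The lists carry no centromere positions, so the name distal arm rests on the chosen coordinates and was not checked against an annotation.

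The samples were leaf blades of rice plants carrying HMG-GFP, a fusion of the protein to green fluorescent protein, grown for 28 d in a condition that the labels call HP. All samples were fixed in 1% formaldehyde for 30 min. All plants carried the fusion, and neither its promoter nor the number of lines is stated. Chromatin immunoprecipitation sequencing (ChIP-seq) gave 3 immunoprecipitates (IP), made with a GFP antibody, and 3 inputs without antibody. The 3 IP replicates have a peak list each and form the only group compared here, so all errors are spreads over these 3 samples, which the labels do not tie to separate plants. The lists hold no read counts, the depth is unknown, and the samples include no IP from plants lacking the fusion, so that peaks from other sources cannot be told apart from binding.

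Within the arms HMG-GFP peaks covered about as much sequence in replicate 3 as in replicate 1, while over the pooled rest of the 12 chromosomes replicate 3 covered less. This was not confined to the arms, since replicate 3 covered more than replicate 1 in 27 of the 305 windows of 1 Mb wholly outside them, such as 24000001 to 25000000 on chromosome 4, with 37.3%, 40.6% and 40.8% in replicates 1, 2 and 3. Replicates 1, 2 and 3 had 11371, 11051 and 9268 peaks in the arms, or 18.9%, 19.5% and 22.3% of each list. These are 183, 177 and 149 peaks per Mb, against 157, 147 and 104 per Mb in the rest of the 12 chromosomes. The arms were covered to 34.6%, 37.2% and 33.6% in replicates 1, 2 and 3, a mean of 35.1% ± 1.86 (SD, n = 3). The rest was covered to 31.2%, 31.1% and 19.2%, a mean of 27.2% ± 6.89 (SD, n = 3). Every replicate thus had more of the arms under peaks than of the rest, and with all peaks counted replicate 3 had the largest difference.

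The difference in coverage between the arms and the rest was 3.43 percentage points in replicate 1, 6.08 in replicate 2 and 14.4 in replicate 3, a mean of 7.96 ± 5.70 (SD, n = 3). Without replicate 3 the mean difference was 4.75 points, so that this library set much of its size. The rest of chromosomes 1 to 3 was covered to 30.4%, 30.6% and 20.7% and the other 9 chromosomes to 31.3%, 31.2% and 18.9%. Pooled outside the arms, chromosomes 1 to 3 were thus close to the other chromosomes in coverage. Single windows of that pool differed. From 28000001 to 29000000 on chromosome 1 coverage was 35.2%, 39.1% and 37.7%. From 2000001 to 3000000 on chromosome 2 it was 26.2%, 27.5% and 23.8%. Regions of all 3 replicates stood at 130 per Mb in the arms, 96.7 in the rest of chromosomes 1 to 3 and 87.6 on the other 9. With a fold of at least 2, the coverage of the arms was 1.35, 1.81 and 2.07 times that of the rest in replicates 1, 2 and 3, against 1.11, 1.20 and 1.75 times with all peaks. At that fold the arms were covered to 29.9%, 23.6% and 19.3% and the rest to 22.2%, 13.1% and 9.32%. The differences were then 7.66, 10.5 and 10.01 percentage points, so that replicate 2 had the largest and replicate 3 no longer covered as much of the arms as replicate 1. The fold is the enrichment that the authors gave for each peak, a linear ratio.

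**Figure D1:**
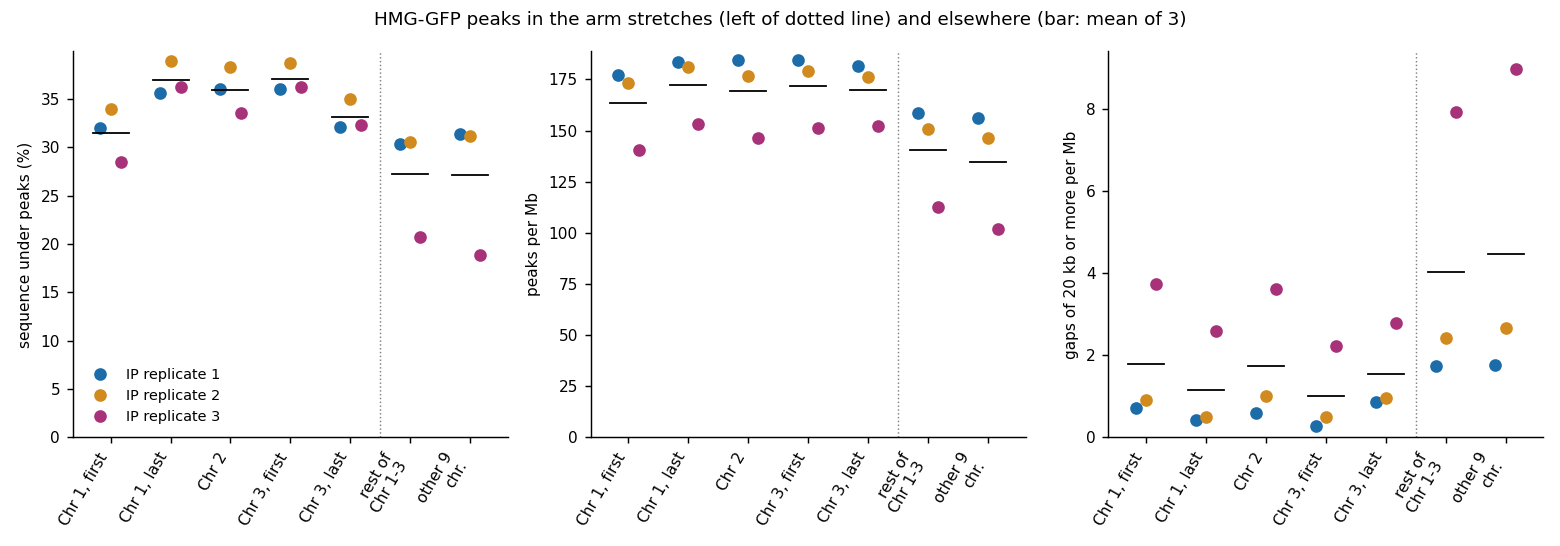
Share of sequence under peaks (%), peaks per Mb and gaps of 20 kb or more per Mb for the 5 arm stretches, left of the dotted line, and for the rest of chromosomes 1 to 3 and the other 9 chromosomes; points are the 3 IP replicates and bars their means. Replicate 3 covers 28.4% to 36.3% of the 5 stretches and 20.7% and 18.9% of the other parts.

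The 5 arms resembled each other, and the first stretch of chromosome 1 had the lowest coverage. It was covered to 32.0%, 33.9% and 28.4% in replicates 1, 2 and 3. The last stretch of chromosome 1 was covered to 35.7%, 38.9% and 36.3%. On chromosome 2 the values were 36.0%, 38.3% and 33.5%. These 3 stretches show replicate 2 highest in each, and replicate 3 on either side of replicate 1. In the first stretch of chromosome 3 the replicates covered 36.1%, 38.7% and 36.3%, and in its last stretch 32.1%, 35.0% and 32.4%. The number of peaks varied less between arms, from 177 to 185 per Mb in replicate 1, from 173 to 181 in replicate 2 and from 141 to 153 in replicate 3. Merged regions numbered 175 to 179 per Mb in every arm. The number of regions per Mb was thus nearly the same in all 5 arms, while their coverage was not.

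More of the arm regions held a peak of every replicate than is usual in the series. Of the 11023 regions, 8080 (73.3%) held all 3 replicates, where the background over the 12 chromosomes was 58.7%. The share was 58.7% in the rest of chromosomes 1 to 3 and 54.8% on the other 9. By arm it was 67.4% in the first and 77.1% in the last stretch of chromosome 1, 72.5% on chromosome 2, and 74.2% and 75.1% in the first and last stretch of chromosome 3. Every arm was therefore above the background, and the first stretch of chromosome 1 was nearest to it. Recurrence entered the choice of the chromosomes, so these shares describe the arms and are not evidence about them.

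The larger share came with fewer regions that replicate 3 had missed. Regions of replicates 1 and 2 alone made up 12.8% of those in the arms, where the background was 22.1%, and 24.1% in the rest. Regions seen in replicate 1 alone were 3.90% in the arms and 9.56% in the rest, and those in replicate 2 alone 2.04% and 3.63%. Regions in replicate 3 alone, by contrast, were 4.48% and 4.19%, a similar share in both. The remaining pairs were rare: replicates 2 and 3 alone held 2.76% of arm regions and replicates 1 and 3 alone 0.735%. Regions of all 3 replicates had a median width of 2200 bp in the arms, those of 2 replicates 1400 bp and those of a single replicate 800 bp. Bases under all 3 lists made up 23.3% of the arms and 13.5% of the rest, which is 50.9% and 35.0% of the bases under any list. The rest is a pool of unlike parts. Of the 305 windows of 1 Mb wholly outside the arms, 29 (9.51%) reached the median arm window, which had 23.8% under all 3 lists. With replicate 3 left out, 32.5% of the arms lay under both other lists.

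**Figure D2:**
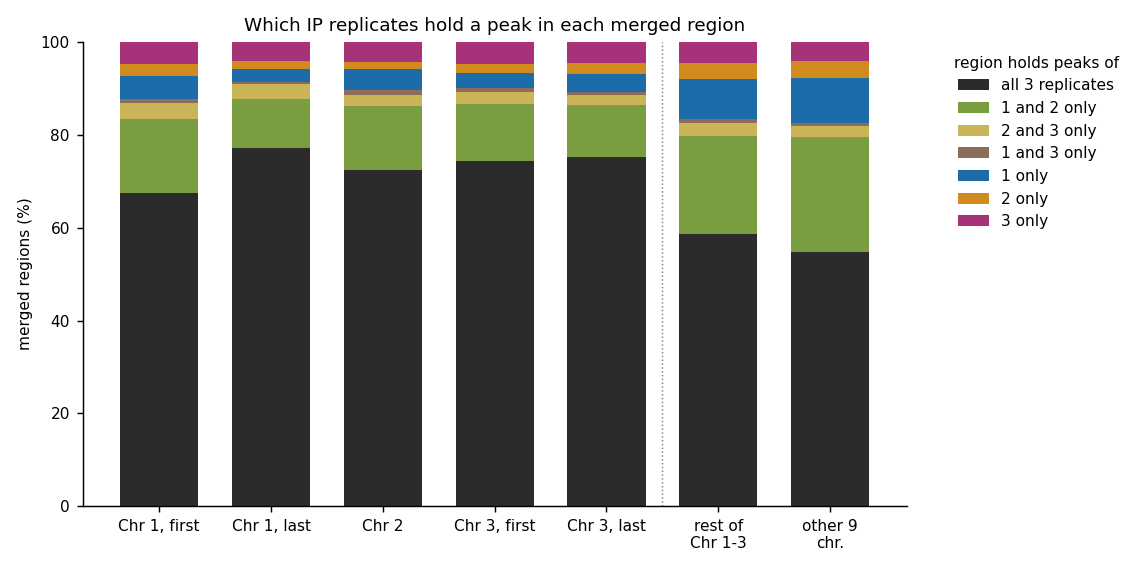
Share of merged regions (%) by the IP replicates that hold a peak in them, for the 5 arm stretches, left of the dotted line, the rest of chromosomes 1 to 3 and the other 9 chromosomes. Regions of all 3 replicates make up 67.4% to 77.1% in the stretches, against 58.7% and 54.8%.

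Arm peaks lay a few kilobases apart. The gap from the end of a peak to the start of the next in the same list had a median of 2600 bp in replicates 1 and 2 and 2800 bp in replicate 3. In the rest of the 12 chromosomes the medians were 3000, 3200 and 4000 bp. The middle of the distribution ran from 1400 to 4600 bp in replicates 1 and 2 and from 1400 to 5400 bp in replicate 3 (quartiles). Midpoints of neighbouring peaks were 4700, 4800 and 5400 bp apart in the median, against 5200, 5400 and 6100 bp in the rest. The shortest gap was 800 bp in each list, and gaps of exactly 800 bp made up 9.35%, 10.1% and 8.98% of arm gaps. The lists thus hold no gap under 800 bp, and whether the caller joined closer peaks was not tested.

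The arms had fewer long gaps per Mb than the pooled rest in every replicate. Gaps of 20 kb or more numbered 0.562, 0.770 and 2.99 per Mb in the arms, against 1.77, 2.63 and 8.79 per Mb in the rest, or 0.32, 0.29 and 0.34 times as many. The coefficient of variation of the gaps, their SD over their mean, was 0.89, 0.92 and 1.16 in the arms and 0.99, 1.06 and 1.58 in the rest. Of the arm gaps, 40.1%, 41.8% and 37.5% were at most 2 kb, against 35.4%, 35.0% and 27.8% in the rest. These are shares of gaps, while the long gaps are counts per Mb, so the differences cannot be ranked against each other. Regions of all 3 replicates were spaced more widely than peaks of 1 list, with a median gap of 3200 bp in the arms and 4400 bp in the rest. The rest pools unlike parts, and peaks as dense as in the arms also occurred there. From 24000001 to 25000000 on chromosome 4 there were 194, 188 and 169 peaks, against 183, 177 and 149 per Mb in the arms. Gaps were not measured separately for such parts, so close spacing is not shown to be particular to the arms.

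**Figure D3:**
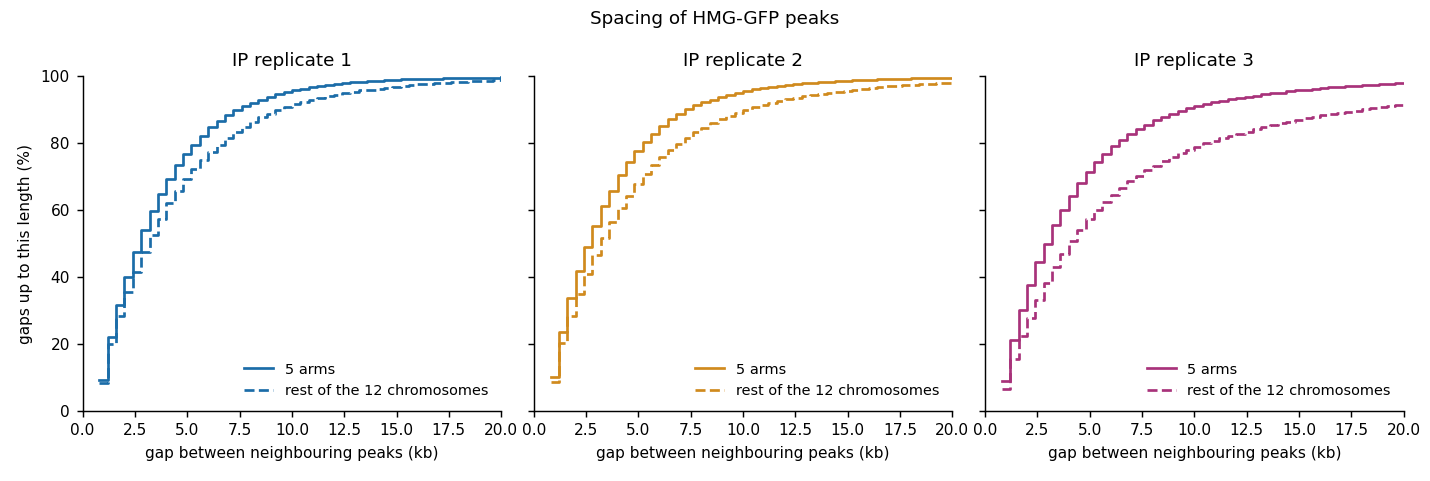
Cumulative share of gaps (%) between neighbouring peaks up to a given length (kb) in each IP replicate, in the 5 arms (solid) and the rest of the 12 chromosomes (dashed). The solid line lies above the dashed line in each replicate, with medians of 2.6 to 2.8 kb in the arms.

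Stretches without a peak in any list were short. Their median length was 2200 bp in the arms and 2600 bp in the rest, and those of 10 kb or more numbered 294, or 4.72 per Mb, against 10.1 per Mb. The longest in the arms measured 65800 bp, on chromosome 1 from 33509201 to 33575000. The longest in the other arms were 25400 bp on chromosome 1 from 11012801 to 11038200, 33200 bp on chromosome 2 from 20369601 to 20402800, 30400 bp on chromosome 3 from 5908601 to 5939000 and 26200 bp on chromosome 3 from 27089401 to 27115600. Across the rest of the 12 chromosomes the longest reached 142000 bp.

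Peaks in the arms were wider in replicate 3 than its peaks in the pooled rest of the 12 chromosomes, and this did not hold for the other replicates. The median width in the arms was 1400, 1400 and 1800 bp in replicates 1, 2 and 3, against 1400 bp in the rest for each of them. The mean width was 1896, 2097 and 2257 bp in the arms and 1992, 2114 and 1855 bp in the rest. Replicate 3 thus had, on average, the widest arm peaks of the 3 lists and the narrowest peaks in the pooled rest. In the rest of chromosomes 1 to 3 alone the mean width was 1916, 2031 and 1835 bp. Against that part, replicate 2 also had somewhat wider peaks in the arms on average. Wider peaks in replicate 3 than in replicate 1 were not confined to the arms. From 24000001 to 25000000 on chromosome 4, for example, 169 peaks of replicate 3 covered 40.8%, while 194 of replicate 1 covered 37.3%. Peaks of 4 kb or more made up 9.67%, 11.9% and 13.6% of arm peaks, against 10.3%, 11.8% and 7.84% in the pooled rest. In the rest of chromosomes 1 to 3 they made up 9.10%, 10.6% and 7.25%, below the arms in every replicate. At the narrow end, 10.4%, 8.85% and 4.82% of arm peaks measured at most 400 bp, against 10.2%, 9.23% and 6.61% in the pooled rest.

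Broad peaks of 10 kb or more followed the same split between replicates. The arms held 125 of the 958 such peaks of replicate 1 (13.05%), 130 of 884 in replicate 2 (14.7%) and 58 of 157 in replicate 3 (36.9%). Set against the 16.7% of the span that the arms take up, replicates 1 and 2 had somewhat fewer there and replicate 3 more. Per Mb this was 2.01, 2.09 and 0.931 in the arms and 2.68, 2.43 and 0.318 in the rest. In the rest of chromosomes 1 to 3 it was 2.44, 2.08 and 0.225, so that replicate 2 was alike in the arms and there. The widest arm peaks measured 32000, 40000 and 18600 bp in replicates 1, 2 and 3.

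The authors' fold was moderate in the arms and higher than elsewhere. Its median was 3.21, 2.41 and 2.09 in replicates 1, 2 and 3, against 2.76, 2.12 and 2.01 in the rest, and the quartiles in the arms were 2.50 and 4.05, 1.94 and 2.96, and 1.79 and 2.43. The sources do not say if the folds of the 3 lists are on the same scale, so the rank of a peak within its own list is the safer measure. The median arm peak stood at percentile 62.7, 61.9 and 54.9 of its list, while the median peak of the rest stood at 47.1, 47.1 and 48.6. A fold of at least 2 was reached by 90.1%, 71.8% and 57.7% of arm peaks, where the background over the 12 chromosomes was 83%, 59.8% and 52.8%. The lowest decile of each list by fold took 5.52%, 5.23% and 7.89% of arm peaks and the highest decile 15.5%, 14.9% and 10.8%, where a decile holds 10% of a whole list. Replicate 3 therefore showed the smallest shift in fold, although with all peaks it had the largest in coverage and width.

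Strong and weak arm peaks differed in how often they came back. Replicate 3 met 82.6% of the arm peaks of replicate 1 and 84.0% of those of replicate 2, where the background over the 12 chromosomes was 66.8% and 70.7%, and 63.1% and 67.5% in the rest. In the lowest decile of replicate 1 by fold, 48.9% of 628 arm peaks were met by replicate 3, against 25.8% of 5360 peaks in the rest. In the highest decile the shares were 98.3% of 1767 arm peaks and 96.1% of 4239. For meetings with replicate 3 the difference in percentage points was thus wide among weak peaks and narrow among strong ones. Among strong peaks both shares are close to their upper limit, which leaves little room for a difference. The narrowing therefore does not show that arms and rest differ less for strong peaks. Replicate 2 peaks gave 33.9% and 20.8% in the lowest decile, 53.5% and 35.0% in the next, and 98.4% and 97.3% in the highest.

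At equal deciles of fold, replicate 3 still met the arm peaks of both other lists more often than their peaks in the rest. The 82.6% seen for replicate 1 compares with 71.7% for peaks of the rest weighted to the same mix of deciles, and the 84.0% of replicate 2 with 76.2%. Replicate 3 also covered more of the arms than of the rest, 33.6% against 19.2%, and the part of this in the shares was not tested. Between replicates 1 and 2 the arms stood closer to the rest: replicate 2 met 95.2% of the arm peaks of replicate 1 (background 90.3%), and replicate 1 met 94.2% of those of replicate 2 (background 93.1%). Arm peaks of replicate 3 were met by replicates 1 and 2 at 91.2% and 93.8% (background 89.9% and 92.7%). In some of these pairings weak arm peaks were met less often than weak peaks of the rest. In the lowest decile, replicate 1 met 88.9% of the arm peaks of replicate 2, against 92.2% in the rest, and the next 2 deciles also had lower shares in the arms. Of the replicate 3 peaks in the lowest decile, replicate 1 met 76.1% in the arms and 81.3% in the rest, and replicate 2 met 80.2% and 84.3%. The split into deciles was chosen with the results known.

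**Figure D4:**
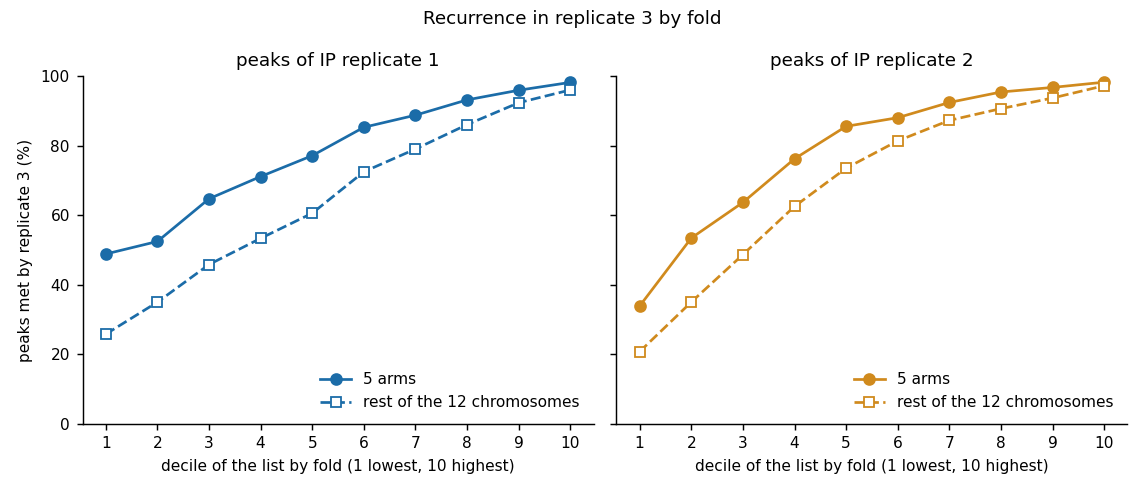
Share of replicate 1 peaks (left) and replicate 2 peaks (right) that overlap a replicate 3 peak (%), by decile of the list by fold, in the 5 arms (filled) and the rest of the 12 chromosomes (open). In replicate 1 the lowest decile gives 48.9% and 25.8%, and the highest 98.3% and 96.1%.

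Peak edges in the arms mostly agreed to within a step of the 200 bp grid on which the lists are built. Of the 8080 arm regions of all 3 replicates, 6627 (82.0%) were made of exactly 1 peak of each list, against 86.1% of those in the rest. In these, the start was the same base in replicates 1 and 2 for 75.1% of regions, in replicates 2 and 3 for 57.7% and in replicates 1 and 3 for 49.3%. Within 200 bp the shares were 90.2%, 78.6% and 72.3%. For 1362 regions (20.6%) start and end were identical in all 3 lists, against 21.8% in the rest, so that the arms and the rest were alike in this. The replicate 3 peak was wider than the replicate 1 peak in 61.0% of the arm regions and narrower in 13.5%, against 51.0% and 20.8% in the rest. Where a region joined several peaks of a list, it did so in replicate 1 for 14.1% of the arm regions of all 3 replicates, in replicate 2 for 10.6% and in replicate 3 for 3.65%.

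The ranking of arm regions by fold was partly shared between replicates. Across the 8080 regions of all 3 replicates, Spearman's rho of the fold was 0.68 between replicates 1 and 2, 0.56 between 2 and 3 and 0.46 between 1 and 3, against 0.67, 0.54 and 0.43 in the rest. Regions of a list share its library and its input, so no p-value is given. In 5982 arm regions (74.0%) replicate 1 had the highest fold and replicate 3 the lowest. The background over the 12 chromosomes was 69.8%, with 68.5% in the rest, so this order was mostly shared by the whole lists. Since the folds of the lists may differ in scale, it is not a trait of the arms. Within arms, rho between width and fold over the peaks of a list was -0.27, -0.26 and -0.10 in replicates 1, 2 and 3, and -0.39, -0.40 and -0.19 in the rest.

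The strongest regions of each arm were mostly narrow. Positions are those of the lists, counted from 1; the sources used here name no genome build, and no gene was assigned. In the first stretch of chromosome 1 the highest median fold was that of 800 bp from 11007601 to 11008400, where replicates 1, 2 and 3 had folds of 6.83, 6.34 and 4.06. It was followed by 2400 bp from 9590001 to 9592400 (6.58, 5.95 and 3.66) and 1600 bp from 5046601 to 5048200 (7.72, 5.56 and 2.46). The 800 bp region ended 4400 bp before the longest peak-free stretch of its arm. In the last stretch of chromosome 1, the leading region of 5000 bp from 37507001 to 37512000 had folds of 9.19, 7.71 and 2.35. Another of the leading 3, 2000 bp wide from 37535401 to 37537400, began 23400 bp after its end and had folds of 6.94, 6.41 and 2.69. The third in that stretch was 1200 bp from 41108601 to 41109800 (7.21, 7.01 and 2.93).

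On chromosome 2 the leading regions were 800 bp from 27654801 to 27655600, with folds of 10.9, 6.99 and 2.73, 1200 bp from 24786001 to 24787200 (8.999, 6.49 and 4.25) and 4000 bp from 22684601 to 22688600 (7.63, 6.35 and 2.65). In the first stretch of chromosome 3 they were 1000 bp from 7033801 to 7034800 (6.35, 6.48 and 3.57), 8800 bp from 4921601 to 4930400 (7.70, 6.35 and 2.26) and 1200 bp from 7176401 to 7177600 (8.58, 5.95 and 3.89). Those of the last stretch of chromosome 3 were 1200 bp from 34226601 to 34227800 (7.05, 6.77 and 2.90), 1400 bp from 30773601 to 30775000 (9.85, 6.48 and 3.85) and 1000 bp from 28493401 to 28494400 (9.17, 6.34 and 3.92). Replicate 3 had the lowest fold in all 15. In the ranking of its own list, replicate 3 placed them between percentile 67.9 and 99.8, replicate 1 at 98.9 or above and replicate 2 at 99.8 or above. The median of the 3 folds, by which they were picked, was that of replicate 2 in most of them. The high percentiles of replicate 2 therefore follow from the choice. The 8800 bp region joined 3 peaks in replicates 1 and 2 and was a single peak in replicate 3, where it had the lowest percentile.

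The widest region of all 3 replicates in each arm had a lower median fold than the leading regions, which were picked by that value. The widest regions were not all weak within their lists. Over the 5 arms their percentiles ran from 38.6 to 73.7 in replicate 1, from 9.93 to 83.3 in replicate 2 and from 9.89 to 81.0 in replicate 3. It measured 24000 bp in the first stretch of chromosome 1, from 6921801 to 6945800, as 1 peak in replicates 1 and 2 and 3 peaks in replicate 3, with highest folds of 2.76, 1.97 and 2.49. In the last stretch it measured 33000 bp, from 36555001 to 36588000, with folds of 2.78, 1.85 and 2.18. On chromosome 2 it measured 40400 bp, from 31861601 to 31902000 (2.54, 1.66 and 1.54). The widest in the first stretch of chromosome 3 was 26400 bp, from 8997201 to 9023600, with folds of 3.59, 2.98 and 2.44, the highest of the 5 in replicates 1 and 2. The widest in the last stretch was 19400 bp, from 34835001 to 34854400 (2.57, 1.48 and 1.61).

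Along the arms coverage was not even, and replicate 3 varied most. Over the 61 whole windows of 1 Mb, coverage ran from 27.0% to 42.2% in replicate 1 with a median of 34.8%, from 27.7% to 45.8% in replicate 2 with a median of 37.4%, and from 18.4% to 45.2% in replicate 3 with a median of 34.7%. In the 305 windows wholly outside the arms the medians were 30.2%, 30.0% and 16.9%. The median arm window was reached by 78 of the 305 outside windows in replicate 1 (25.6%), by 47 in replicate 2 (15.4%) and by 24 in replicate 3 (7.87%). The groups of windows overlapped in every replicate, since windows as densely covered as the arms occurred elsewhere too. Replicate 3 covered more than replicate 1 in 28 of the 61 arm windows (45.9%), against 27 of 305 outside (8.85%). It covered less than 75% of what replicate 2 did in 7 arm windows (11.5%) and 211 outside (69.2%).

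**Figure D5:**
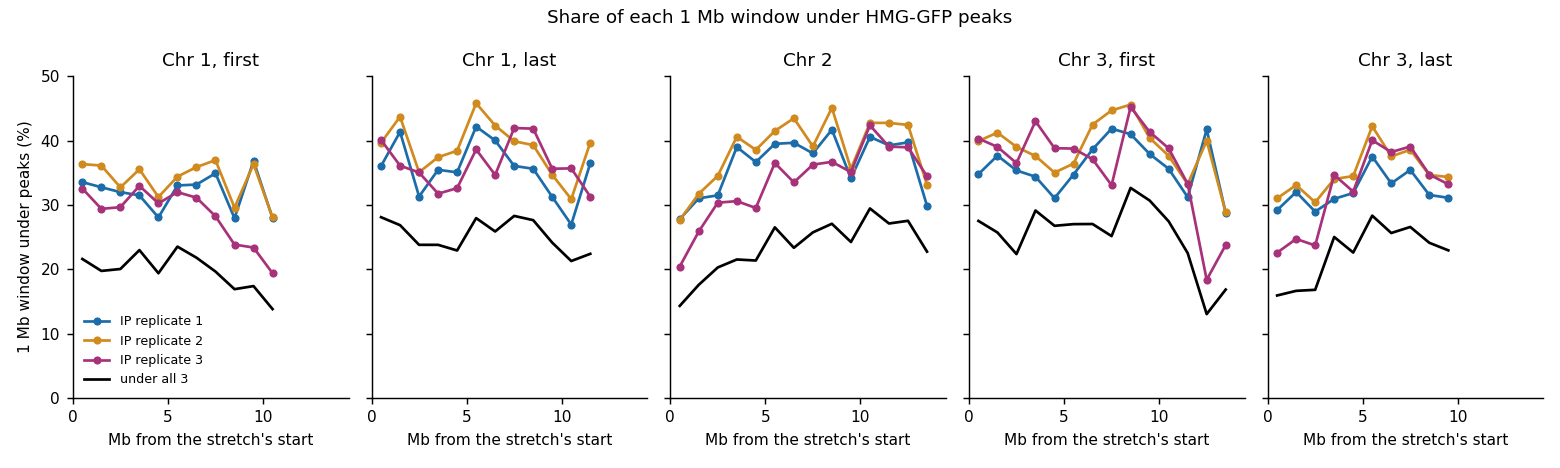
Share of each 1 Mb window under peaks (%) along the 5 arm stretches, by distance from the start of the stretch (Mb), for the 3 IP replicates and for bases under all 3 (black). Replicate 3 runs near the others in most windows and falls to 18.4% in 1 window of the first stretch of chromosome 3, where replicate 1 is at 41.8%.

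In 4 of the 5 arms replicate 3 was lower in the windows that face the middle of the chromosome. In the first stretch of chromosome 1 its mean coverage was 30.5% in the 3 outermost windows and 22.2% in the 3 innermost. On chromosome 2 the values were 37.5% and 25.6%, in the first stretch of chromosome 3 38.6% and 25.1%, and in its last stretch 35.7% and 23.7%. The last stretch of chromosome 1 went the other way, with 34.2% and 37.1%. Inward of its border, replicate 3 covered 36.2% from 29000001 to 30000000 and 11.6% from 20000001 to 21000000. Its coverage thus also fell toward the middle there, but outside the chosen stretch. Replicate 1 differed by less between the same windows, by 1.85, 6.19, 2.04 and 2.65 points in the first 4 stretches named, against 8.34, 12.0, 13.5 and 12.0 points in replicate 3. Across the 61 windows the coverage of replicates 1 and 2 had a Pearson r of 0.96, that of replicates 2 and 3 of 0.64 and that of replicates 1 and 3 of 0.45. Neighbouring windows share libraries and sequence composition, so these are descriptions without a p-value.

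The windows with the most and the least sequence under all 3 lists lay in different places along the arms. On chromosome 3 the most was in the window from 9000001 to 10000000 (32.7%) and in the last stretch from 30000001 to 31000000 (28.3%). On chromosome 2 it was from 30000001 to 31000000 (29.5%). On chromosome 1 it was from 6000001 to 7000000 (23.5%) and from 37000001 to 38000000 (28.3%). The least was 13.02%, on chromosome 3 from 13000001 to 14000000, where the replicates covered 41.8%, 40.0% and 18.4%. This window was thus above the arm median in replicates 1 and 2 and the lowest of the 61 in replicate 3. The least in the first stretch of chromosome 1 was 13.8%, from 11000001 to 12000000, and on chromosome 2 it was 14.3%, from 20000001 to 21000000. In the last stretch of chromosome 3 it was 15.9%, from 25000001 to 26000000. All 3 of these windows lie at the border nearest the middle of the chromosome. In the last stretch of chromosome 1 the least was 21.3%, from 40000001 to 41000000, where replicate 1 covered 27.0% and replicate 3 covered 35.7%.

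The chosen borders can be described by the values on either side. Among the 3 merged regions nearest to each border, 19 of the 30 just inside held all 3 replicates, and 21 of the 30 just outside. Their median folds were 3.40, 2.29 and 2.17 inside and 3.32, 2.35 and 2.03 outside in replicates 1, 2 and 3. In the megabase on each side, the largest change at a border in replicate 3 was on chromosome 3 at 1 Mb, with 40.3% inside and 31.5% outside. At 20 Mb on chromosome 2 replicate 3 was lower inside, with 20.4% against 26.7%, and at 12 Mb on chromosome 1 all 3 lists were at 28.0%, 28.1% and 19.4% inside against 35.1%, 35.8% and 16.4% outside.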

How the data were processed

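Peak lists of 3 IP samples were used; inputs entered only as far as the authors used them. Tools named in the submitters' processing notes, without roles, are MACS2 2.1.2, Bowtie2 2.4.1, Trimmomatic 0.33 and bcl2fastq 2.19; the caller, its settings, the build and the use of the inputs are not stated in the sources used here. Each IP sample has its own peak list. Per the file headers, each list holds a fold enrichment, a linear ratio, with a p-value and an FDR (at most 1e-05) from the authors. The deposited length is in bp (an other unit), and all starts and lengths are multiples of 200 bp. The deposited pileup is proportional to the fold within a list and was not used as a depth.

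Peaks were assigned by midpoint and merged at an overlap of at least 1 bp. Coverage counts bases of the arm under its peaks. The value of a region is the highest fold of each list in it. Named regions are, per arm, the 3 of highest median fold and the widest held by all 3 replicates, the longest peak-free stretch, and the fullest and emptiest 1 Mb window. Members and lists were chosen with earlier results of these data known, and no test was run. Merging, coverage and gaps were tested on simulated data, with 20 of 20 simulations recovered. The simulated sites were well separated and held at most 1 peak of a list. Regions of several peaks of a list, arm borders and the alternative merging rules were therefore not tested by them. The gene table used for names belongs to a different assembly, so gene and sequence context was not analysed here. Alternatives changed the FDR, the fold, list length, borders, membership, merging and replicates. Python 3.11.15, numpy 2.4.6, pandas 2.3.3 and matplotlib 3.10.9 were used.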

Additional observations from a re-analysis of the deposited data

How the results depend on the processing

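The number of merged regions in the arms, 11023, stayed within 1.5 times under every alternative run (9216 to 11375). Regions of all 3 replicates (73.3%), coverage (35.1%), bases under all 3 lists (23.3%) and the median gap (2667 bp) moved to 66.1%, 31.6%, 20.5% and 3333 bp with an FDR of 1e-20 or less. With a fold of at least 2 they were 44.9%, 24.3%, 13.5% and 4200 bp, and with lists of equal length 69.5%, 32.4%, 21.4% and 3133 bp. Replicate 3 over replicate 2 coverage, 0.903, was then 0.818 and 1.02; its spread was taken over the 5 arms. Borders moved inward by 1 Mb gave 74.3% of regions held by all 3 replicates and 23.9% of bases under all 3 lists. Shifts in these shares were judged against intervals that treat regions or bins of 200 bp as independent. Small shifts such as these therefore count as moves, and the intervals do not measure the spread between replicates. Leaving out each replicate in turn gave 74.6% to 89.6% of regions held by both others and 23.7% to 32.5% of bases under both. The coverage difference between the arms and the rest was 4.75 to 10.2 points over these, and above 0 under every alternative run. The arms were selected on peak density in these same lists, which every alternative reused, so that sign is not evidence about them. The cause of these moves was not tested, except that fewer peaks lower coverage and lengthen gaps, and that 2 lists share more than 3. Depth is unknown. No paired analysis was possible because the inputs have no list of their own to set against the IP lists.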
